A study of Mus musculus with 10 samples.

Results

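Mast cells store preformed proteases, histamine and heparin in their granules and release them when an antigen cross-links immunoglobulin E (IgE) held on the surface by the high-affinity IgE receptor. Their growth and survival depend on the receptor tyrosine kinase KIT. In mice, mast cells of the connective tissue and skin type are known for chymases, tryptases and carboxypeptidase A, whereas mast cells of the mucosal type carry Mcpt1 and Mcpt2. The 9 genes described here were taken by gene name from a table of 34449 genes, each name matched 1 row, and all 9 passed the filter on low counts. They are the tryptases Tpsb2 and Tpsab1, the carboxypeptidase Cpa3, the chymases Mcpt4 and Cma1, the stem cell factor receptor Kit, the IgE receptor chains Ms4a2 (beta) and Fcer1a (alpha), and the histamine-forming enzyme Hdc.

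RNA was measured in 10 tumors of BALB/C mice aged 9 weeks, 5 labelled therapy and 5 labelled control. The therapy was BC@Z-M + L, in which particles of a zinc imidazolate framework holding the hypoxia-activated dye BN-O and the vascular disrupting agent CA4P, coated with macrophage membrane, were given before laser irradiation. Control tumors did not receive BC@Z-M + L, and what they received in its place was not given in the sources used here for these libraries. All tumors came from 4T1, a mouse mammary carcinoma line, so that every mast cell transcript was read in whole tumor RNA. In such RNA, fewer mast cells and less RNA per mast cell cannot be told apart. The labels do not say that the libraries came from separate mice, so p-values measure only the spread between these libraries. Estimated count totals were 53446143 to 77510631 in therapy libraries and 53411182 to 65263003 in control libraries. All 9 genes were above 0 in all 10 libraries. Levels are given as FPKM, a level scaled to transcript length and library size.

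The promoters of the genes whose levels moved together are shown first, to give the sequence upstream of each start. In RefSeq (GRCm38.p6), 7 of the 9 genes had a promoter entry, while Tpsb2 and Tpsab1 did not. The motif GATAA, a form of the site bound by GATA factors, was searched on both strands in the 250 bases before each start. Other forms, such as GATAG, were not searched. GATAA was found for Cpa3, Mcpt4, Cma1, Ms4a2 and Fcer1a, that is for 5 of 7 genes, and was not found for Kit and Hdc. Its absence there does not mean that these genes lack a GATA site. Among all 32851 promoters of that length in the table, 22.6% held GATAA. Those of Cpa3, Mcpt4, Ms4a2 and Fcer1a are printed up to the base before the start, 5′ to 3′ on the strand of the gene, with GATAA, or its reverse complement TTATC, in capitals.
Cpa3, chr3:20242182-20242331, minus strand: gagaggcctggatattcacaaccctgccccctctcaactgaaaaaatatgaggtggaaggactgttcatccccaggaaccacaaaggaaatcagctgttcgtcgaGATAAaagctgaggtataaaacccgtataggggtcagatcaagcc
Mcpt4, chr14:56062311-56062460, minus strand: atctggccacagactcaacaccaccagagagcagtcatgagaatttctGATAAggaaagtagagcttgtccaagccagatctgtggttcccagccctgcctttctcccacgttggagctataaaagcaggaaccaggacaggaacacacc
Ms4a2, chr19:11623720-11623869, minus strand: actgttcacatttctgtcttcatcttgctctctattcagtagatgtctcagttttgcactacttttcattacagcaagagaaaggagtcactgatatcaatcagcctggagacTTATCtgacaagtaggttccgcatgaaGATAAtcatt
Fcer1a, chr1:173227230-173227379, minus strand: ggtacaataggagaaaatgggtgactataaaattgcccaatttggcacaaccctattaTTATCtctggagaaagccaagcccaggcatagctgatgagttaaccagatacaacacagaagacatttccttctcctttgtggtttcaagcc
In Cpa3 the match began 45 bases before the start, and in Mcpt4 it began 102 bases before it. Ms4a2 had 3 matches in its 250 bases, of which those at 37 and 10 bases lie in the stretch shown. Fcer1a had 1 match, on the other strand and 92 bases before the start. The match of Cma1 lay 194 bases before the start. The core promoter motif TATAAA, which was searched on both strands and does not overlap these matches, was found for Cpa3, Mcpt4 and Fcer1a, against 12.4% of all promoters. It began 31 bases before the start in Cpa3, with another match at 242, and 32 bases before it in Mcpt4. In Fcer1a it began 125 bases before the start, farther from it. These matches describe sequence, not binding.

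The first question was whether the therapy changed mast cell RNA. None of the 9 genes passed the test between therapy and control tumors. With edgeR's quasi-likelihood test and Benjamini-Hochberg adjustment, 0 of 9 genes were called, and the share called among all 18668 genes tested was 0%. At an unadjusted p under 0.05, edgeR gave 546 genes in all, or 2.92%, and 0 of the 9. That number was 335 without therapy replicate 2, 821 without control replicate 3 and 1709 without therapy replicate 4, and 1 of the 9 was among the last. DESeq2 called 3 genes in all, or 0.0161%, and 0 of the 9, and limma on log2(FPKM + 1) or log2(FPKM + 0.1) called 0 genes (323 and 579 genes had an unadjusted p under 0.05). The fit on log2(FPKM + 1) covered 6 of the 9, without Kit, Ms4a2 and Fcer1a. All 9 fitted log2 fold changes were above 0, with a median of 0.49, against 53.3% of all genes tested and a median of 0.016. Since the 9 genes varied together between tumors, these are not 9 separate observations of a direction. The count was 6 of 9 without therapy replicate 2, with a median of 0.18, and 5 of 9 without therapy replicates 2 and 5 and control replicate 1, with a median of 0.058. Without control replicate 1 the median was 0.80.

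**Figure D1:**
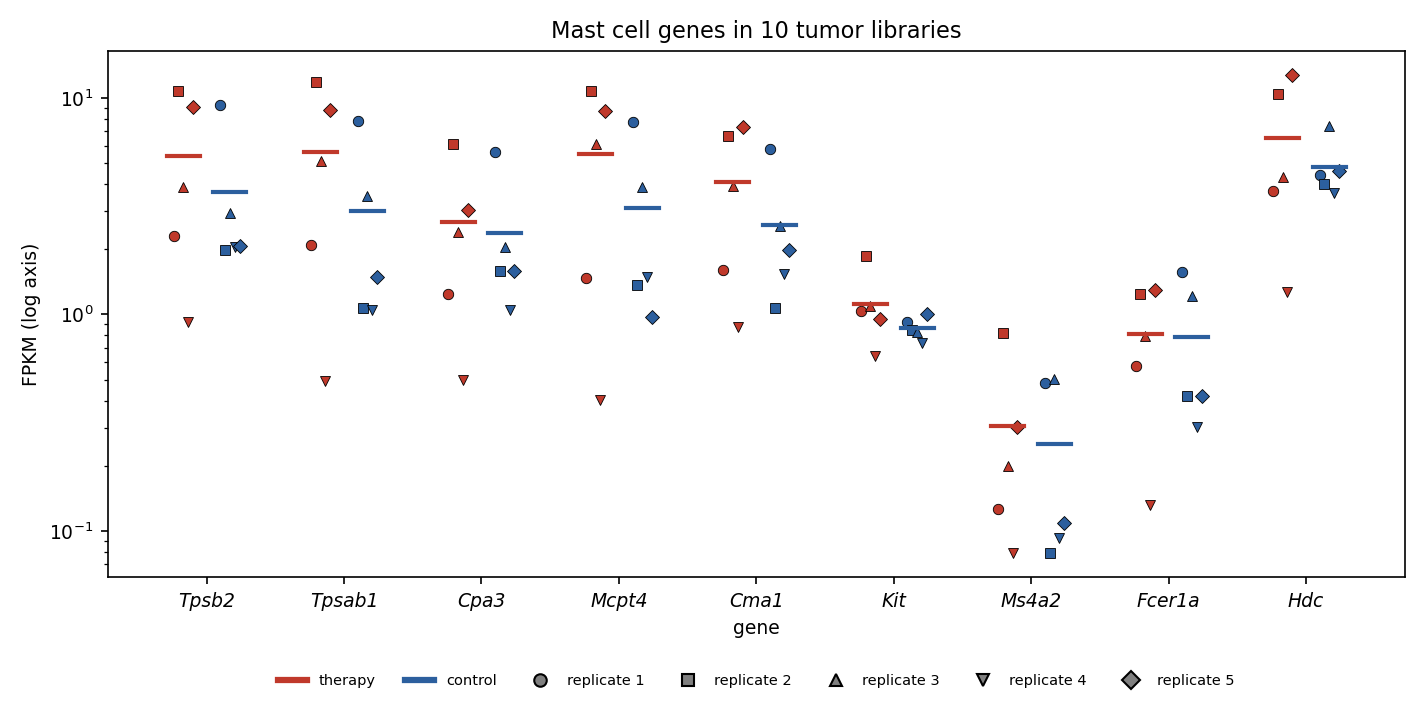
FPKM on a log axis for the 9 genes. Each point is 1 library, its shape gives the replicate number, and the bar is the group mean (n = 5 each). Among therapy tumors, therapy 2 (square) sits high and therapy 4 sits low for every gene, therapy 5 (diamond) sits high for the proteases, Fcer1a and Hdc and not for Kit, control 1 (circle) sits high among control tumors for the proteases, and the groups overlap for every gene.

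Tryptases are trypsin-like serine proteases stored as tetramers with heparin. Tpsb2 (chr17:25366305-25369098 in GRCm38, plus strand) reached 2.31, 10.8, 3.86, 0.922 and 9.05 FPKM in therapy replicates 1 to 5, against 9.29, 1.98, 2.95, 2.06 and 2.06 FPKM in control replicates 1 to 5. High levels were found in 2 therapy tumors and 1 control tumor, and the lowest level was also in a therapy tumor, so the groups overlapped. The means were 5.38 ± 4.31 FPKM in therapy tumors and 3.67 ± 3.17 FPKM in control tumors (SD, n = 5 each). The log2 fold change was 0.58 (SE 0.66, edgeR adjusted p = 0.985), and its 95% interval spanned 0.548-fold to 4.08-fold. Tpsab1 (chr17:25343245-25345562, minus strand), the neighboring tryptase gene, had 2.10, 11.8, 5.10, 0.492 and 8.76 FPKM in therapy tumors, against 7.84, 1.07, 3.54, 1.05 and 1.48 FPKM in control tumors. It repeated the order of Tpsb2 at both ends, with therapy 2 highest and therapy 4 lowest, 23.9-fold apart. Its log2 fold change was 0.94 (SE 0.78, edgeR adjusted p = 0.985), the largest of the 9, with an interval of 0.583-fold to 6.31-fold. It was 0.50 without therapy replicate 2 and 1.70 without control replicate 1. The longest transcripts of the 2 tryptases shared no exact run over 23 bases.

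Cpa3 (chr3:20215620-20242181, minus strand) trims C-terminal residues from peptides and is stored in mast cell granules. It reached 1.24, 6.14, 2.41, 0.495 and 3.03 FPKM in therapy tumors, against 5.64, 1.58, 2.04, 1.05 and 1.58 FPKM in control tumors. Therapy 2 and control 1 were nearly level at the top, and the means were 2.66 ± 2.18 FPKM in therapy tumors and 2.38 ± 1.85 FPKM in control tumors (SD, n = 5 each). The log2 fold change was 0.18 (SE 0.63, edgeR adjusted p = 0.995) with an interval of 0.436-fold to 2.94-fold. It was -0.38 without therapy replicate 2 and -0.029 without control replicate 4.

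Mcpt4 and Cma1 are granule proteases of the chymase family. Mcpt4 (chr14:56059629-56062313, minus strand), the chymase of connective tissue type mast cells, reached 1.47, 10.7, 6.14, 0.400 and 8.70 FPKM in therapy tumors, against 7.75, 1.37, 3.89, 1.49 and 0.970 FPKM in control tumors. It had the widest range of the 9 genes, 26.8-fold between therapy 2 and therapy 4. Its log2 fold change was 0.85 (SE 0.81, edgeR adjusted p = 0.985), with an interval of 0.529-fold to 6.14-fold. Cma1 (chr14:55941451-55944675, minus strand), the alpha chymase, reached 1.61, 6.70, 3.91, 0.879 and 7.31 FPKM in therapy tumors, against 5.82, 1.07, 2.55, 1.54 and 1.99 FPKM in control tumors. Therapy 5 was its highest library, and its log2 fold change was 0.69 (SE 0.61, edgeR adjusted p = 0.985), with an interval of 0.638-fold to 4.08-fold. Mcpt4 shared an exact run of 100 bases with the related gene Cma2 and one of 56 bases with Mcpt9, where reads could be assigned to either gene. Of the runs of 50 bases in Mcpt4, 5.48% occurred in Cma2, and Cma2 averaged 0.0835 FPKM and Mcpt9 0.0476 FPKM, against 4.29 FPKM for Mcpt4.

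Kit (chr5:75574916-75656722, plus strand), the receptor for stem cell factor, is also carried by melanocytes and other cells. It had 1.04, 1.87, 1.09, 0.639 and 0.948 FPKM in therapy tumors, against 0.924, 0.850, 0.828, 0.735 and 1.0 FPKM in control tumors. Control tumors lay close together, and only therapy 2 stood well above the rest. The means were 1.12 ± 0.455 FPKM in therapy tumors and 0.868 ± 0.101 FPKM in control tumors (SD, n = 5 each). The log2 fold change was 0.38 (SE 0.25, edgeR adjusted p = 0.985), with the narrowest interval of the 9, 0.894-fold to 1.9-fold.

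The alpha chain encoded by Fcer1a binds IgE and the beta chain encoded by Ms4a2 amplifies the signal, and basophils carry both as well. Ms4a2 (chr19:11615523-11623719, minus strand) was the lowest of the 9 genes, with 0.126, 0.821, 0.199, 0.0792 and 0.303 FPKM in therapy tumors, against 0.480, 0.0789, 0.50, 0.0931 and 0.109 FPKM in control tumors. Therapy 2 was highest, and controls 1 and 3 stood above the other control tumors. Its log2 fold change was 0.29 (SE 0.72, edgeR adjusted p = 0.994), with an interval of 0.414-fold to 3.63-fold, and was -0.47 without therapy replicate 2. Fcer1a (chr1:173221284-173227214, minus strand) reached 0.580, 1.24, 0.799, 0.132 and 1.30 FPKM in therapy tumors, against 1.58, 0.418, 1.22, 0.301 and 0.422 FPKM in control tumors. Control 1 was its highest library, and the means were 0.810 ± 0.484 FPKM in therapy tumors and 0.787 ± 0.573 FPKM in control tumors (SD, n = 5 each). Its log2 fold change of 0.081 (SE 0.62, edgeR adjusted p = 0.997, interval 0.415-fold to 2.69-fold) was the smallest of the 9. It was below 0 when any of therapy replicates 2 and 5 or control replicates 2, 4 and 5 was left out, down to -0.19.

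Hdc (chr2:126593667-126619299, minus strand) makes histamine from histidine in mast cells, basophils and some other myeloid cells. It reached 3.71, 10.4, 4.29, 1.27 and 12.8 FPKM in therapy tumors, against 4.38, 4.01, 7.44, 3.65 and 4.60 FPKM in control tumors. Therapy tumors held both the 2 highest levels and the lowest, while control 1, which was high for the proteases, was not high for Hdc. The means were 6.5 ± 4.88 FPKM in therapy tumors and 4.82 ± 1.51 FPKM in control tumors (SD, n = 5 each), with a log2 fold change of 0.49 (SE 0.51, edgeR adjusted p = 0.985) and an interval of 0.650-fold to 3.01-fold. The log2 fold change was -0.68 without therapy replicates 2 and 5 and control replicate 1.

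**Figure D2:**
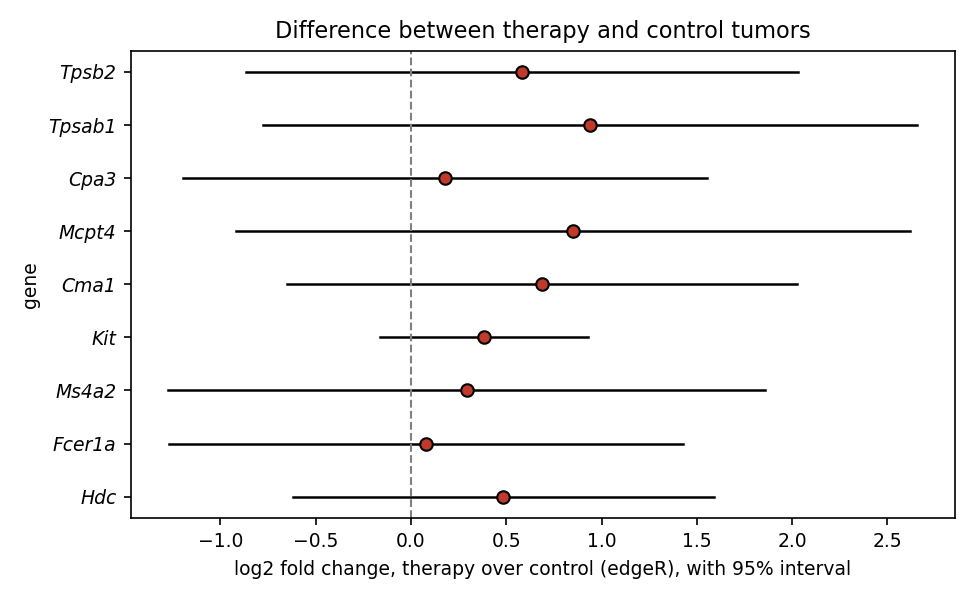
Log2 fold change of therapy over control from edgeR (points) with its 95% interval (lines) for the 9 genes, n = 5 libraries in each group. All 9 points lie above 0 and all 9 intervals include 0. Kit has the narrowest interval.

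An exact two-sided permutation test on log2(FPKM + 0.1) of each gene gave p from 0.333 for Kit to 1 for Cpa3, unadjusted, where 5 against 5 libraries can reach 0.00794. On the FPKM scale, which allows levels of different genes to be compared, the order of the means over the 10 libraries was Hdc, Tpsb2, Tpsab1, Mcpt4, Cma1, Cpa3, Kit, Fcer1a and Ms4a2. The 3 genes Tpsb2, Tpsab1 and Mcpt4 averaged 4.53, 4.32 and 4.29 FPKM and did not differ beyond their spread, since Tpsb2 was above Tpsab1 in 7 of 10 libraries and Tpsab1 above Mcpt4 in 6. Hdc was above Tpsb2 in 8 of 10 libraries, Mcpt4 above Cma1 in 6 and Kit above Fcer1a in 7, so these neighbors overlapped as well. Cma1 was above Cpa3 in 9 of 10 libraries, Cpa3 above Kit in 9, and Fcer1a above Ms4a2 in all 10.

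The spread between tumors was wide for 8 of the 9 genes. The SD of log2(FPKM + 0.1) over the 10 libraries was 0.85 to 1.52 for 8 genes and 0.38 for Kit, with a median of 0.30 over all genes tested. Mcpt4 varied more than 99.3% of the genes tested, Tpsab1 more than 99.2%, and Ms4a2 more than 95.5%, whereas Kit varied more than 64.7%. Therapy 2 ranked in the top 3 libraries for all 9 genes and therapy 5 and control 1 for 7 each. Therapy 4 was the lowest library for 8 genes, and control 2 for Ms4a2. The count total was 62819960 in therapy 2, 57088966 in therapy 5, 63796013 in therapy 4 and 53411182 in control 1, the lowest of the 10.

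**Figure D3:**
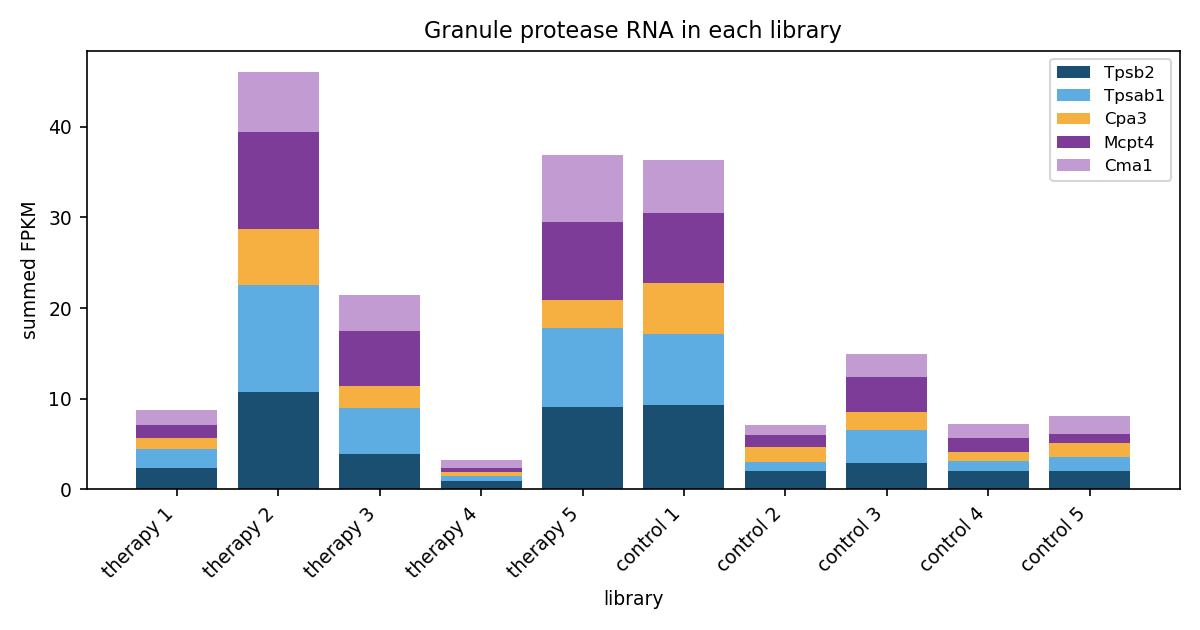
Summed FPKM of the 5 granule proteases in each library, with each bar divided by gene. The sum runs from 3.19 FPKM in therapy 4 to 46.1 FPKM in therapy 2, a 14.5-fold span, while the share of each gene spans at most 2.72-fold.

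The 5 proteases varied together from tumor to tumor. Their summed level was 3.19 to 46.1 FPKM in therapy tumors (median 21.4) and 7.07 to 36.3 FPKM in control tumors (median 8.09), a 14.5-fold span. The share of each protease in this sum spanned less. Tpsb2 made up 18.0% to 28.9% in therapy tumors and 19.7% to 28.6% in control tumors, and Tpsab1 made up 15.4% to 25.6% in therapy tumors and 14.6% to 23.6% in control tumors. Mcpt4 made up 12.6% to 28.7% in therapy tumors and 12% to 26.0% in control tumors, and Cma1 made up 14.5% to 27.6% in therapy tumors and 15.1% to 24.6% in control tumors. Cpa3, whose share had the widest ratio between libraries (2.72-fold, against 2.39-fold for Mcpt4), made up 8.22% to 15.5% in therapy tumors and 13.6% to 22.4% in control tumors. Its lowest share was in therapy 5 and its highest in control 2.

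Over the 10 libraries, the 10 pairs of proteases had Pearson r of 0.901 to 0.975 and Spearman rho of 0.879 to 0.976 on log2(FPKM + 0.1). All 10 passed after Benjamini-Hochberg adjustment over the 36 pairs of the 9 genes (adjusted permutation p = 0.000144 to 0.000748, where an unadjusted p of 1e-05 is the smallest that these permutations can give). The relation held within groups, at r of 0.945 to 0.992 in therapy tumors and 0.863 to 0.964 in control tumors. It also held without the 2 libraries farthest from the median of the first gene of each pair, at 0.842 to 0.961. Without therapy 2, therapy 5 and control 1, r was 0.818 to 0.952. The IgE receptor chains followed the proteases. Their 10 pairs with them had r of 0.822 to 0.944, and 0.591 to 0.929 without therapy 2, therapy 5 and control 1. Fcer1a was closer to Tpsab1 (r = 0.944) than Ms4a2 was (r = 0.872). Estimated counts of these 2 chains were low, at 16 to 162 for Ms4a2 and 10 to 95 for Fcer1a. Ms4a2 also lay near the added 0.1 FPKM in several libraries, and how far this shaped its r was not tested. In all, 34 of the 36 pairs passed by r and 29 by rho, and 16 passed by r in the 7 libraries left without therapy 2, therapy 5 and control 1.

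Kit and, less so, Hdc had lower r than this group. The 8 pairs of Kit had r of 0.564 to 0.726 and rho of 0.491 to 0.697, of which 6 passed by r and 1 by rho (adjusted permutation p for r = 0.0145 to 0.0823). Within control tumors Kit had r of only 0.030 to 0.470. Without the 2 libraries farthest from the median of the first gene of each pair, r of Kit was 0.0050 to 0.587 with a median of 0.25. These libraries differed between pairs. For the pairs of Kit with Ms4a2, Fcer1a and Hdc, therapy 2 and therapy 4 were left out, and r was 0.022, 0.240 and 0.0050. The pairs with Tpsb2 (0.587) and Cma1 (0.579), which moved least, kept therapy 4. Without therapy 2, therapy 5 and control 1, which also keeps therapy 4, r of Kit was 0.208 to 0.755. Its median was then 0.66, against 0.64 in all 10 libraries. The omissions took out different libraries, so their r values cannot be set side by side. Hdc had r of 0.620 to 0.815 with the other 8 genes, and 7 of its 8 pairs passed by r and 7 by rho. Without therapy 2, therapy 5 and control 1, r of Hdc was 0.565 to 0.890. It followed them in therapy tumors (0.699 to 0.982) and less so in control tumors (0.109 to 0.699), and the difference between the groups was not tested.

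**Figure D4:**
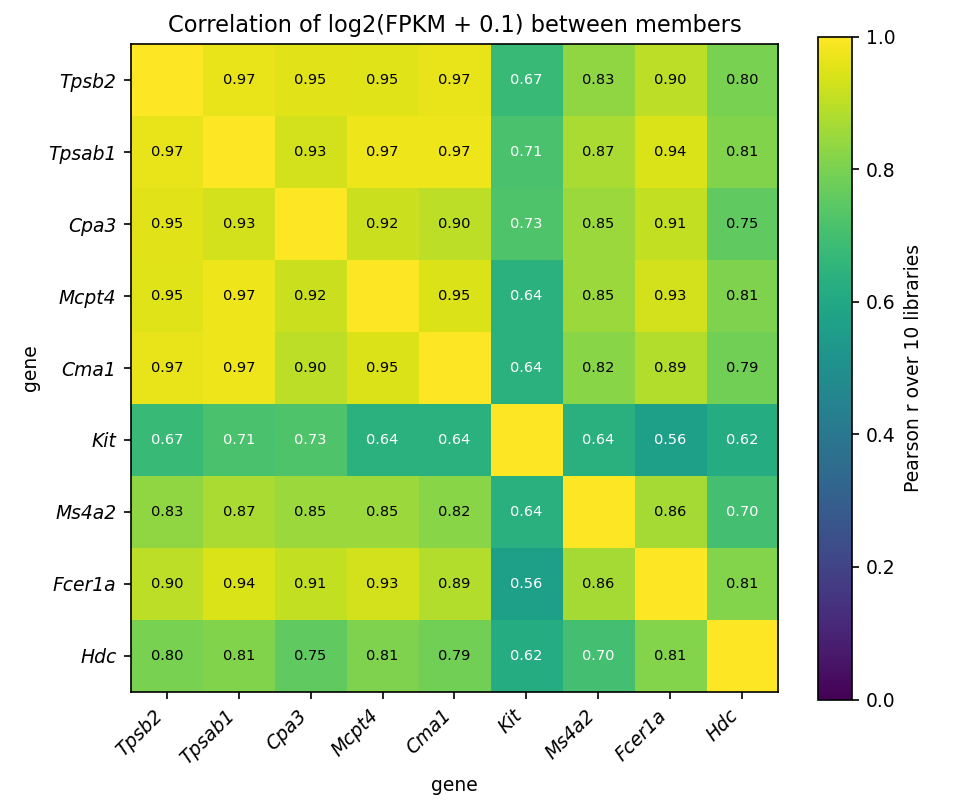
Pearson r between the 9 genes over 10 libraries on log2(FPKM + 0.1), from 0 (dark) to 1 (bright). The proteases and IgE receptor chains form a bright block, with protease pairs at 0.90 to 0.97, and the Kit row holds the lowest values, 0.56 to 0.73.

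Other mast cell genes were read from lists chosen for their roles, and none of their members passed the edgeR test, as no gene did. Counts of direction below stand beside 53.3% positive among all genes tested. Genes of a list need not vary separately, so these counts are not separate observations. Of 6 further granule proteases, 3 were tested and all 3 had positive log2 fold changes, with a median of 1.80. Mcpt1, the chymase of mucosal type mast cells, reached 1.29, 7.91, 5.97, 0.368 and 10.2 FPKM in therapy tumors, against 1.62, 1.55, 1.89, 0.435 and 0.312 FPKM in control tumors. Therapy replicates 2, 3 and 5 lay above every control tumor and replicates 1 and 4 lay among them (log2 fold change 2.18, SE 0.81, edgeR unadjusted p = 0.0201, adjusted p = 0.985). Control 1 was high for the connective tissue type proteases and not for Mcpt1. Mcpt2, the other mucosal type protease, had 0.520, 5.56, 2.17, 0.138 and 7.98 FPKM in therapy tumors, against 2.17, 0.741, 1.88, 0 and 0.0482 FPKM in control tumors, where control 4 was listed at 0. Unlike for Mcpt1, control 1 was the highest control tumor for Mcpt2, just above control 3. The third, Ctsg, a protease of neutrophil precursors as well as mast cells, had another pattern, with 0.288, 0.808, 0.122, 1.52 and 0.111 FPKM in therapy tumors, against 0.194, 0, 0.30, 0.401 and 0.228 FPKM in control tumors (log2 fold change 1.33, SE 0.87, edgeR adjusted p = 0.985). Ctsg was highest in therapy 4, the lowest library for 8 of the 9 genes, and the neutrophil precursor genes Elane (2.54 FPKM) and Mpo (1.25 FPKM) were highest there as well. Mcpt1 and Mcpt4 had r of 0.869 and rho of 0.891 over the 10 libraries (adjusted permutation p = 0.0436 for r and 0.0554 for rho, over 108 relations of the 9 genes with Mcpt1 and 11 marker sums).

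Among 10 surface receptors and transcription factors of mast cells, 9 had positive log2 fold changes and the median was 0.25. Mrgprb2, the receptor for basic secretagogues on connective tissue type mast cells, was at most 0.330 FPKM, in therapy 2. Mrgprb1 was highest in therapy 2 as well, at 0.651 FPKM. Il1rl1, the receptor for interleukin 33, had 0.632 to 3.81 FPKM in therapy tumors and 1.11 to 2.44 FPKM in control tumors. Among 12 genes of IgE receptor signaling, 10 had positive and 2 negative log2 fold changes, with a median of 0.17. Fcer1g, the gamma chain that the receptor shares with other Fc receptors, was 29.2 to 45 FPKM in therapy tumors and 27.6 to 45.2 FPKM in control tumors, far above the alpha and beta chains. Lat, an adaptor of the receptor, had a log2 fold change of 0.73 (SE 0.35) and Lat2 one of -0.44 (SE 0.24), each with an edgeR adjusted p of 0.985. Only Inpp5d of the 12 had an unadjusted p under 0.05 (log2 fold change 0.41, SE 0.14, edgeR unadjusted p = 0.0165, adjusted p = 0.985).

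The ligand of KIT, Kitl, was at 4.51 to 6.94 FPKM in therapy tumors and 4.36 to 8.20 FPKM in control tumors (log2 fold change -0.0022, SE 0.19, edgeR adjusted p = 0.999). Tslp, an epithelial cytokine that acts on mast cells, reached 132, 20.8, 36.2, 31.5 and 346 FPKM in therapy tumors, against 47.4, 61.1, 72.4, 38.2 and 36.1 FPKM in control tumors. Its highest level was in therapy 5 and its lowest in therapy 2, both of which were high for the proteases (log2 fold change 1.22, SE 0.70, edgeR adjusted p = 0.985). Of 8 genes for granule storage and lipid mediators, 5 had positive and 3 negative log2 fold changes, with a median of 0.069. Srgn, the proteoglycan core of granules that many leukocytes also make, was highest in therapy 5 at 161 FPKM and lowest in therapy 4 at 31.2 FPKM. For histamine receptors and breakdown, Hrh3 was not in the table, 3 genes were tested, and 2 of them had positive log2 fold changes.

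Basophils share the IgE receptor chains and Hdc with mast cells. Mcpt8, a basophil protease, was above all 9 genes in all 10 libraries, at 18.4, 15.6, 21.2, 8.79 and 27.9 FPKM in therapy tumors, against 19.3, 20.4, 22.9, 11.5 and 15.8 FPKM in control tumors. Prss34, another basophil protease, was at most 0.427 FPKM. The summed level of 5 basophil genes was 10.7 to 31.4 FPKM in therapy tumors and 14.0 to 26.0 FPKM in control tumors. It had r of 0.283 to 0.764 with the 9 genes, and 0 of 9 relations passed over the 108. Mcpt8, at a mean of 18.2 FPKM, carried most of that sum, since Il3ra, the next highest of the 5, averaged 1.54 FPKM. For 12 neutrophil and immature myeloid genes, which bear on Hdc, the sum was 365 to 1093 FPKM in therapy tumors and 453 to 917 FPKM in control tumors. Its r with Hdc was 0.660 (rho = 0.491, adjusted permutation p = 0.133) and 0.425 without the 2 farthest libraries. S100a9 and S100a8, at means of 427 and 143 FPKM, carried most of that sum and were highest in therapy 5, as Hdc was. Ly6g, Camp, Ngp, Ltf, Elane and Mpo were instead highest in therapy 4, the lowest library for Hdc. Csf3r and Cxcr2 were highest in therapy 2, and Retnlg and Mmp8 in control 5. For Kit, the sum of 6 melanocyte genes was 0.0820 to 3.54 FPKM in therapy tumors and 0.211 to 0.392 FPKM in control tumors. Therapy 2, the highest library for Kit, held that top value, with Dct at 0.787 FPKM, Tyrp1 at 0.959 FPKM and Tyr at 0.129 FPKM. The r of Kit with that sum was 0.860 (rho = 0.467, adjusted permutation p = 0.0914) and -0.227 without the 2 farthest libraries. With the sum of 6 endothelial genes, which was 21.6 to 47.2 FPKM in therapy tumors and 28.8 to 35.2 FPKM in control tumors, r of Kit was 0.834 (rho = 0.733, adjusted permutation p = 0.0804) and 0.558 without the 2 farthest libraries. The part of these cell types in the levels of Fcer1a, Ms4a2, Hdc and Kit was not tested.

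Genes of skin keratinocytes and skeletal muscle were high in some of the same libraries as the mast cell genes. The sum of 10 keratinocyte genes was 18.1, 315, 17.3, 3.71 and 10.1 FPKM in therapy tumors, against 53.4, 4.86, 48.2, 6.62 and 6.34 FPKM in control tumors. Therapy 2 and control 1 were high for both, therapy 4 was low for both, and therapy 5 was high for the proteases with a keratinocyte sum of only 10.1 FPKM. Its r with the 9 genes was 0.583 to 0.928, and 1 relation passed over the 108, that of Ms4a2 (r = 0.928, rho = 0.915, adjusted permutation p = 0.0216 and 0.0486, and r = 0.840 without the 2 farthest libraries). With Cpa3, r was 0.800 and rho 0.733 (adjusted permutation p = 0.0804 and 0.134). The sum of 8 skeletal muscle genes was 3.18 to 85.2 FPKM in therapy tumors and 4.36 to 46.6 FPKM in control tumors, and it passed with Kit (r = 0.809, rho = 0.818, adjusted permutation p = 0.0436 for r and 0.0935 for rho, and r = 0.804 without the 2 farthest libraries), while its r was below those of Kit with the melanocyte and endothelial sums, which did not pass. The part of skin or muscle in the dissected tissue was not tested. The sum of 6 adipocyte genes had r of -0.618 to -0.415 with the 9 genes, and 0 of 9 relations passed. It was highest in control 4, at 245 FPKM, and next in therapy 4, at 50.4 FPKM.

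**Figure D5:**
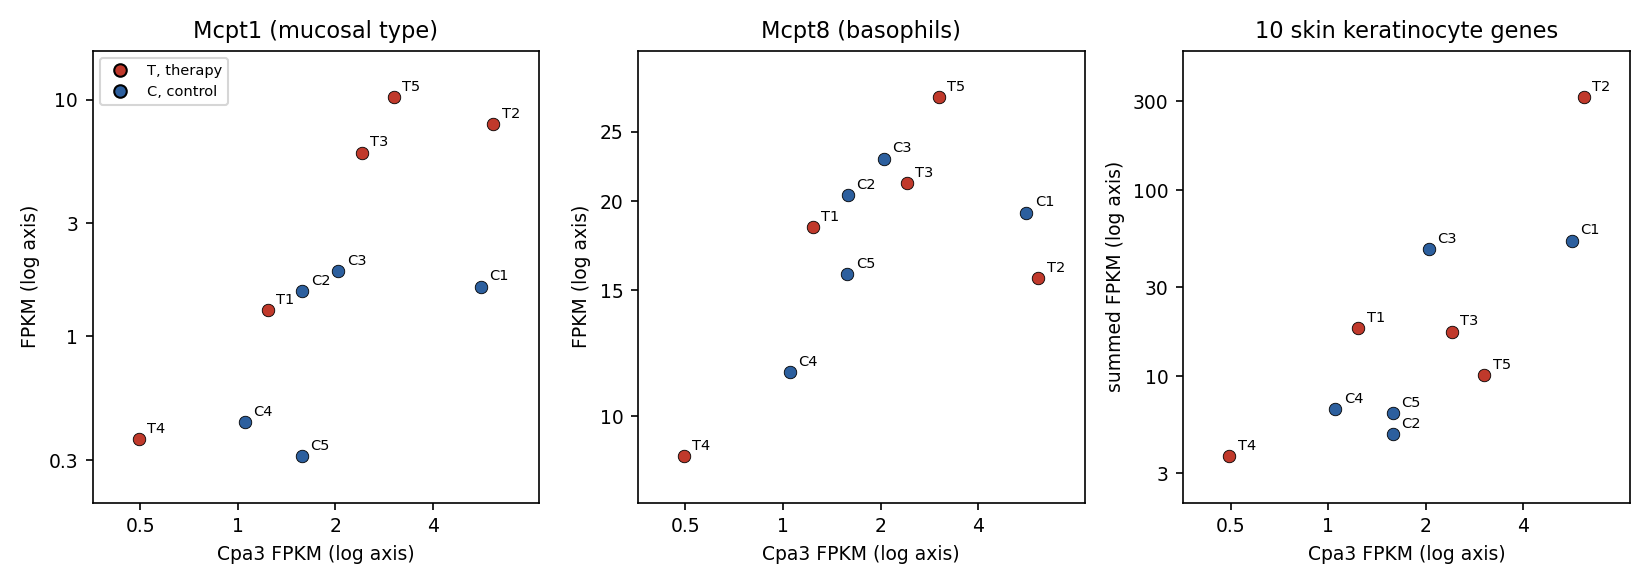
FPKM of Mcpt1, FPKM of Mcpt8 and the summed FPKM of 10 skin keratinocyte genes against the FPKM of Cpa3, all on log axes, with 1 point per library (T therapy, C control, with replicate number). Control 1 is high for Cpa3 and keratinocyte genes and not for Mcpt1, and therapy 5 is high for Mcpt1 and Mcpt8 with a keratinocyte sum of 10.1 FPKM.

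Genes outside these lists were ranked by how closely they followed the mean log2(FPKM + 0.1) of Cpa3, Tpsb2, Cma1 and Mcpt4 over the 10 libraries. The 10 closest were Sprr2f, a cornified envelope gene (r = 0.924), Il19 (0.904), the metallothionein Mt2 (0.901), the retinoic acid hydroxylase Cyp26b1 (0.900), the glycolytic enzyme Pgam1 (0.897), the water and glycerol channel Aqp9 (0.895), Mafa (0.891), Zxdc (0.889), Sv2c (0.888) and Gm45774 (0.888). Tpsab1 (0.985) and Fcer1a (0.930), which were not in that mean, were closer than each of these 10, while Ms4a2 (0.858), Hdc (0.806) and Kit (0.681) were less close. Of the list genes, Mrgprb1 stood at rank 12 (r = 0.887) and the keratinocyte gene Krtdap at rank 14 (r = 0.881).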

How the data were processed

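RNA of 5 therapy and 5 control tumors was measured. The authors deposited 1 table of FPKM values and estimated counts for 34449 genes. The methods name FastQC for quality, HISAT2 for alignment and StringTie for levels, with no version. From the submitters' processing notes come cutadapt 1.9 and the build GRCm38, while the methods name another Ensembl release, so the coordinates may not be of the build used for alignment. The series text speaks of sets of 3 replicates, whereas 5 libraries are listed in each group. The origin of the deposited estimated counts is not given in the sources used here. In each library 1103 to 1397 genes had a count of 4 and 496 to 672 a count of 3, so 1 count need not be 1 read.

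Counts were filtered with filterByExpr, scaled by TMM and fitted with edgeR 4.0.16 (glmQLFit, glmQLFTest, group only), with Benjamini-Hochberg adjustment over 18668 genes and a threshold of 0.05. DESeq2 1.42.0 and limma 3.58.1, other filters and scalings, counts divided by 4, a replicate block and the omission of each library were alternatives. The scripts were tested on simulated data. FPKM correlations used 100000 permutations. Gene coordinates are from GENCODE M21 by gene ID. The members and lists were chosen with earlier results of these data known, and the marker relations and the omission of 3 libraries after seeing the data. Beside the 9 genes, the text names genes of the role and marker lists that have the 2 highest mean FPKM or the 2 largest absolute log2 fold changes in their list and the 10 genes most like the proteases. Dct, Tyr, Tyrp1, Ctsg, Cma2 and Mcpt9 were named after their values were seen. So were Ly6g, Camp, Ngp, Ltf, Csf3r, Cxcr2, Retnlg, Mmp8 and Inpp5d.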

Additional observations from a re-analysis of the deposited data

Results flagged for a closer look

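In 18 groups of 5 libraries (9 genes in therapy and control tumors), 3 had 1 library set far from the others by the gap of that library to its nearest neighbor over the whole range, where chance gives about 1 in 20 groups of independent, normally distributed values. FPKM is skewed and these genes vary together, so that rate does not hold here. Tpsb2 stood at 9.29 FPKM in control 1, with the next control tumor at 2.95 FPKM (gap over range 0.867). Cpa3 stood at 5.64 FPKM in the same tumor, with the next at 2.04 FPKM (0.783). Hdc stood at 7.44 FPKM in control 3, with the next at 4.60 FPKM (0.748). The cause was not tested.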

How the results depend on the processing

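No alternative called any of the 9 genes it tested, with adjusted p of at least 0.536. The filter on a mean FPKM of at least 1 and limma on log2(FPKM + 1) tested only 6 of them, without Kit, Ms4a2 and Fcer1a. Over 174 combinations of a gene and an alternative, 160 kept the direction and side of the threshold and 14 changed sign. DESeq2 called 3 genes in all, against 0 with edgeR. Pairs of genes passing by r numbered 16 without therapy replicates 2 and 5 and control replicate 1, against 34 with all 10 libraries, and that setting has fewer samples. It also turned the log2 fold change of Cpa3 to -0.19, of Ms4a2 to -0.52, of Fcer1a to -0.22 and of Hdc to -0.68. The log2 difference of Cpa3 on log2(FPKM + 0.1) was -0.0073 in limma and in the exact permutation test. Leaving out 1 library at a time gave log2 fold changes of -0.38 to 0.80 for Cpa3, -0.47 to 0.67 for Ms4a2, -0.19 to 0.50 for Fcer1a, 0.12 to 0.52 for Kit, 0.18 to 1.29 for Tpsb2, 0.50 to 1.70 for Tpsab1, 0.47 to 1.55 for Mcpt4, 0.33 to 1.24 for Cma1 and 0.033 to 0.73 for Hdc. Therapy replicate 2 gave the lowest value, except for Fcer1a, Cma1 and Hdc (therapy replicate 5), and control replicate 1 the highest, except for Kit and Hdc (therapy replicate 4). Genes at an unadjusted p under 0.05 numbered 1709 without therapy replicate 4, 1 of the 9 among them, against 546 with all libraries. With the replicate block edgeR called 0 genes and 0 of the 9, and the median log2 fold change of the 9 was 0.30. Same-numbered libraries deviated together only for number 4 (r = 0.41, against at most 0.059 for therapy 4 with another control). Differently numbered libraries reached r of up to 0.33, for therapy 5 with a control. The other same-numbered r values were -0.28 to -0.0027. Therapy 4 and control 4 were also the closest pair of libraries over highly counted genes. The SD of their log2 ratio was 0.388, and the next lowest was 0.459, for controls 4 and 5. The labels give no pairing by number, and why number 4 differs was not tested. The cause of these changes was not tested. The spread between tumors limits precision: the interval of Mcpt4 allows 0.529-fold to 6.14-fold.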
